A study of Caenorhabditis elegans with 2 samples.

Results

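The genes described here encode the Rab, Arf, Arl and Sar1 small GTPases and the RME (receptor-mediated endocytosis) proteins of Caenorhabditis elegans, which together direct vesicles between the compartments of the cell. They were chosen by WormBase symbol, as every gene in the count table named rab, arf, arl, sar or rme followed by a number. The synaptic gene rab-3 and the yolk receptor gene rme-2 were left out of that set. This gave 33 genes of the 46748 in the table. The RNA came from whole hermaphrodites of a wild type that the labels do not specify further (the titles carry N2), aged 5 days and fed heat-inactivated Escherichia coli OP50, the usual laboratory food bacterium. There were 2 libraries, both of this 1 group, so no diet, age or genotype was compared. The replicates were numbered in accession order, and the labels do not say whether the animals were grown apart, so differences between the libraries may be technical.

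A small GTPase works as a switch. It sits on a membrane and recruits coats, tethers or motors while it holds GTP, and it is released when GTP is hydrolysed. Guanine nucleotide exchange factors (GEFs) turn it on and GTPase-activating proteins (GAPs) turn it off, and each GTPase marks its own compartment. Sar1 and Arf proteins start the coats of secretory vesicles, and Rab proteins steer vesicles to early, recycling and late endosomes. In C. elegans this machinery is known above all from yolk uptake by oocytes, from recycling in the intestine and from endocytosis in the coelomocytes, the scavenger cells of the body cavity. The rme genes were named for mutants in which oocytes take up too little yolk.

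Replicate 1 held 28164638 counts and replicate 2 held 31271070. CPM, the usual depth-scaled unit, are counts scaled to the library's own total, and a level is CPM per kilobase of merged exon (CPM per kb), the scale on which genes of different length are compared below. Values are means ± SD of the 2 libraries (n = 2) unless given per library. Detection meant 10 or more counts in each library. That held for 12757 genes, 27.3% of the table, and for 12268 protein-coding genes, 62.5% of those in the table. Markers of several tissues of an adult hermaphrodite were present. All 4 intestinal and all 4 germline markers were detected, with summed levels of 10361 and 1533 CPM per kb in replicate 1 and 10439 and 1514 in replicate 2. The intestinal marker vit-6 alone stood at 6231 ± 0.366 CPM per kb. Another, elt-2, was at 4.12 ± 0.365, below the median of 11.5 for detected protein-coding genes, and the other 3 lay above it. The sums therefore do not measure the share of a tissue in the RNA. The 4 neuronal markers were detected at a summed level of 16.3 and 16.9 CPM per kb in replicates 1 and 2. Of the coelomocyte markers both were detected, at 2.48 and 3.02, of 3 sperm markers 1 was, and of 3 embryo markers 2 were. All 3 body wall muscle markers were detected, at a summed level of 193 and 177 CPM per kb in replicates 1 and 2. So were all 3 epidermal markers, at 62.7 and 56.6. In whole-animal RNA, fewer cells of a type and less RNA per cell cannot be told apart.

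Of the 33 genes, 27 were expressed above the typical detected gene, 5 of them (rme-6, rab-30, rme-4, rab-19 and rab-6.2) by less than 2 times, while the 4 ciliary GTPase genes, rab-37 and rab-11.2 were near the limit of detection. In all, 30 were detected, at a median level of 49.6 ± 1.58 CPM per kb, beside 11.5 ± 0.202 for all detected protein-coding genes. Detection removes the scarce genes from both medians. Over all 33 genes the median was 34.6 CPM per kb, beside 1.28 for all protein-coding genes in the table. Of the 30 detected genes, 27 lay above the median of detected protein-coding genes, 10 were in its top 10% and 16 in its top 25%. Levels ran without a wide gap from rab-11.1 down to rme-6, with 10 genes at 100 CPM per kb or more and 17 from 10 to 100. The remaining 3 detected genes were under 1.

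**Figure D1:**
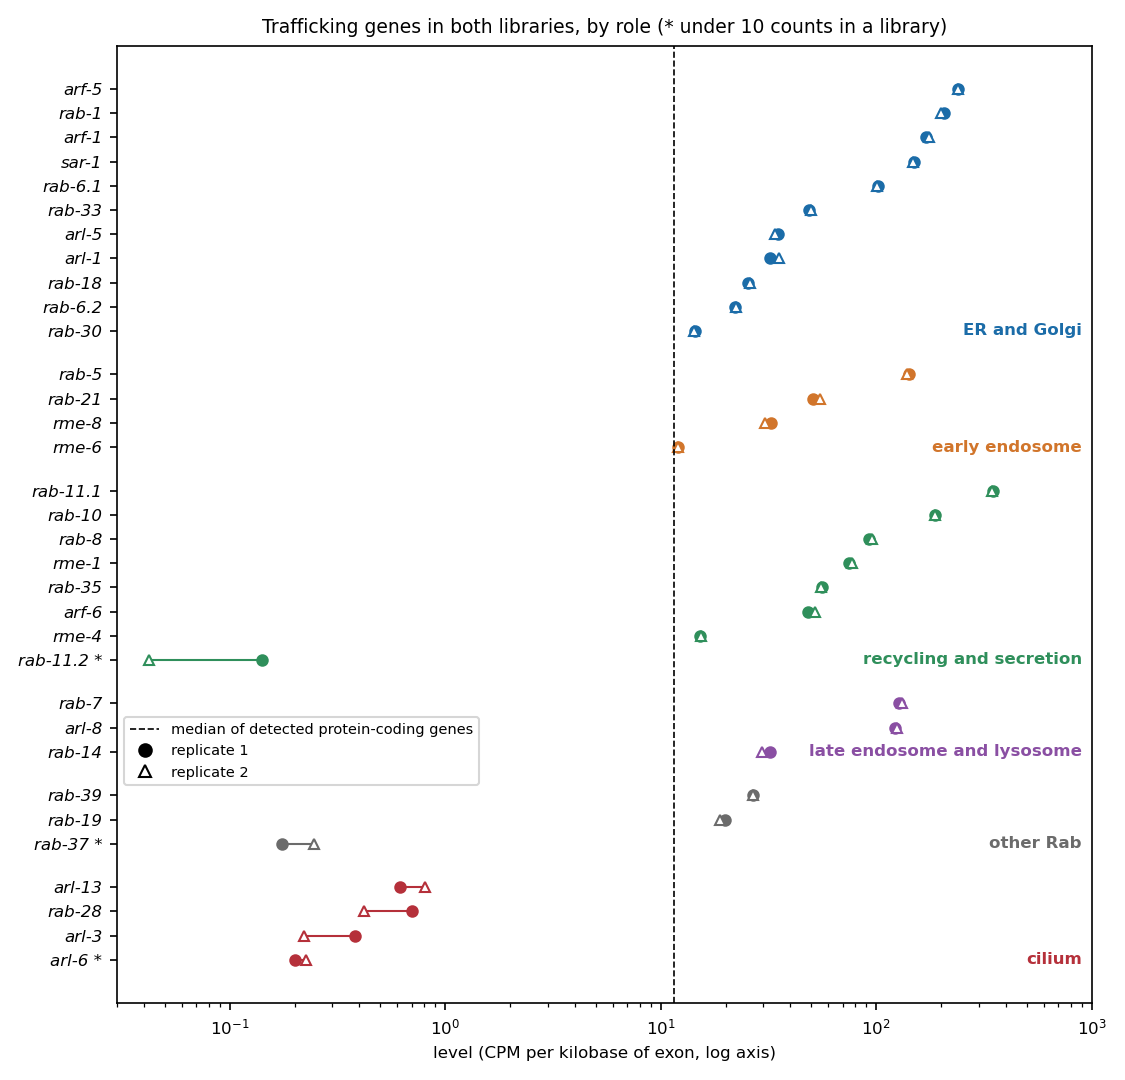
Level of each of the 33 genes (CPM per kilobase of exon, log axis) in replicate 1 (circles) and replicate 2 (triangles), grouped by role, with the median of detected protein-coding genes as a dashed line. The libraries lie almost on top of each other for the 27 genes to the right of the line, and 6 genes, among them all 4 ciliary ones, lie far to its left.

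The genes together took 0.294% of the counts of replicate 1 (82759 counts, 95% Wilson interval 0.292 to 0.296%) and 0.293% of replicate 2 (91726 counts, 0.291 to 0.295%). These intervals cover counting error only. The counts were unevenly shared. The Rab11 gene rab-11.1 alone held 14.6% and 14.5% of the counts of the 33 genes in replicates 1 and 2. The 5 genes with the most counts were rab-11.1, rme-1, rme-8, arf-1 and arf-5, which held 46.3% in both libraries.

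Among genes of the early secretory route, those of the coat-forming GTPases and of RAB-1 had the highest levels. Secretory cargo leaves the endoplasmic reticulum (ER) in vesicles whose COPII coat is started by SAR-1, is received at the Golgi with the help of RAB-1, and is sent back in vesicles whose COPI coat is recruited by Arf1-type GTPases. The class II Arf-type gene arf-5 (WBGene00000183, chromosome IV, 7982526 to 7983852) had 240 and 239 CPM per kb in replicates 1 and 2 (239 ± 0.816). The level of rab-1 (WBGene00004266, chromosome V, 1262629 to 1263989) was 206 and 199 (202 ± 4.62). For the Arf1-type gene arf-1 (WBGene00000182, chromosome III, 5714886 to 5717586) it was 170 and 176 (173 ± 4.36). These ranges did not overlap, and arf-1 stood at 0.724 ± 0.0207 times the level of arf-5. The level of sar-1 (WBGene00022678, chromosome IV, 4511893 to 4513319) was 151 and 148 CPM per kb (149 ± 1.84), below these 3 genes in both libraries, and rab-1 exceeded it 1.35 ± 0.0142 times. The ratio of arf-1 to arf-5 depends on the gene model. With the implied lengths described below the 2 genes were closer, at 187 and 228 CPM per kb. Reads that fit both arf-1 and arf-5 could not be traced.

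The RAB-6 genes were unequal. RAB-6 GTPases act in transport within and back to the Golgi, and the worm has a pair of genes for them. The level of rab-6.1 was 102 and 100.5 CPM per kb (101.4 ± 1.20) and that of rab-6.2 was 22.1 and 22.3 (22.2 ± 0.182). The chromosome III copy, rab-6.1, was therefore 4.56 ± 0.0916 times as abundant as the X-linked rab-6.2. In counts, rab-6.2 made up 19.2% of the pair in replicate 1 (568 of 2964, 95% exact interval 17.8 to 20.6%) and 19.6% in replicate 2 (638 of 3254, 18.3 to 21.01%). Reads that fit both copies could not be traced, as no sequence of the genome was used here.

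The remaining Golgi and ER genes were of middle level. ARL-1 brings golgin tethers to the trans-Golgi, and ARL-5 is known in mammals and flies for recruiting a tethering complex there. The level of arl-1 was 32.3 and 35.4 CPM per kb (33.8 ± 2.20) and that of arl-5 was 35.2 and 33.9 (34.6 ± 0.903). The order of these 2 genes changed between the libraries, so they did not differ beyond their spread. The mammalian Rab33 proteins are tied to the Golgi and to autophagosomes, and the worm gene rab-33 reached 48.9 and 49.6 CPM per kb (49.3 ± 0.495). The gene rab-18, whose mammalian counterpart is found on the ER and on lipid droplets, had 25.3 and 25.9 (25.6 ± 0.416). The lowest of the 11 genes in this role was rab-30, a Golgi Rab in flies and mammals, at 14.5 and 14.2 (14.3 ± 0.159). All 11 genes were detected and lay above the median of detected protein-coding genes.

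Among early endosome genes, the GTPase gene rab-5 had a far higher level than the gene of its activator RME-6. RAB-5 controls the fusion of incoming vesicles into early endosomes, and rab-5 (WBGene00004268, chromosome I, 9308442 to 9310221) had 143 and 139 CPM per kb (141 ± 2.38). The gene rab-21, for an early endosome Rab in mammals, had 50.8 and 55.1 (53.0 ± 3.05). The GEF gene of RAB-5, rme-6 (WBGene00004377, chromosome X, 1097152 to 1103320), was at 12.001 and 12.09 (12.04 ± 0.0607). So rab-5 exceeded rme-6 by 11.7 ± 0.257 times per kilobase. The other RAB-5 GEF gene on the lists, rabx-5, was at 18.8 and 19.5 CPM per kb and was picked for this comparison after its values were seen. The gene rme-8 encodes a large DnaJ-domain protein that acts on endosomes. It had 6734 and 7044 counts, the third highest CPM of the 33 genes (232), but over 7387 bp of exon its level was 32.4 and 30.5 CPM per kb (31.4 ± 1.32).

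Recycling genes held both the highest and the lowest level of the 33. RAB-11 serves recycling endosomes, secretion and the last step of cell division, and in the worm embryo it is needed for the release of cortical granules that build the eggshell. The gene rab-11.1 (WBGene00004274, chromosome I, 108682 to 110057) had 348 and 345 CPM per kb (347 ± 2.07), above 97.7% of detected protein-coding genes. Its relative rab-11.2 (WBGene00004275, chromosome I, 11632983 to 11638491) had 3 counts in replicate 1 and 1 in replicate 2. It therefore made up 0.0248% of the counts of the pair in replicate 1 (95% exact interval 0.00512 to 0.0725%) and 0.00752% in replicate 2 (0.00019 to 0.0419%). With counts this low it stood at or under the floor of 3 counts (0.107 and 0.0959 CPM), and no fold is given. Reads that fit both rab-11.1 and rab-11.2 could not be traced either.

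The genes for the GTPases of basolateral recycling and for the proteins that act with them were spread over a wide range. In the worm intestine RAB-10 acts upstream of RME-1, an EHD-family ATPase that lets cargo leave recycling endosomes. The level of rab-10 (WBGene00004273, chromosome I, 6457282 to 6458479) was 188 in both libraries (188 ± 0.465), and that of the closely related rab-8, which works in delivery to the plasma membrane, was 93.0 and 95.4 (94.2 ± 1.67). The gene rme-1 (WBGene00004373, chromosome V, 6208885 to 6217664) had 74.9 and 76.9 (75.9 ± 1.42). By CPM rme-1 was second of the 33 genes and by level it was number 12, since its 12 annotated transcripts cover 3273 bp of exon. Level by level, rab-10 was 2.00 ± 0.0404 times rab-8 and 2.48 ± 0.0525 times rme-1. Both ratios depend on the gene model, and the SD does not cover that. With the implied lengths described below, both were smaller: rab-10 was at 143, rab-8 at 91.7 and rme-1 at 77.8 CPM per kb.

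RAB-35 returns the yolk receptor to the surface of the oocyte, and RME-4 is its DENN-domain activator. The level of rab-35 was 56.2 and 55.7 CPM per kb (56.0 ± 0.296) and that of rme-4 was 15.2 and 15.4 (15.3 ± 0.149), so the GTPase gene stood at 3.65 ± 0.0547 times its activator gene. This ratio also depends on the gene model. With the implied lengths described below it was smaller, with rab-35 at 42.9 and rme-4 at 17.3 CPM per kb. ARF-6 acts at the plasma membrane and in recycling, and arf-6 had 48.1 and 51.8 (49.95 ± 2.68). It overlapped with rab-21 and rab-33, its neighbours in level. Both pairs of GTPase and GEF in the set, rab-5 with rme-6 and rab-35 with rme-4, had the GTPase gene above the GEF gene in both libraries.

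Genes for the late endosome and lysosome were nearly equal at their top. RAB-7 brings late endosomes and phagosomes to fusion with lysosomes, and ARL-8 carries lysosomes along microtubules and also takes part in that fusion. The level of rab-7 (WBGene00004271, chromosome II, 11965523 to 11966931) was 127 and 132 CPM per kb (130 ± 3.28). That of arl-8 (WBGene00000192, chromosome IV, 14798149 to 14799227) was 123 and 125 (124 ± 1.47). The ratio of rab-7 to arl-8 was 1.05 ± 0.0141, and it depends on the gene model, as given below. RAB-14 works with RAB-7 in the ripening of phagosomes that hold dead cells. Its gene rab-14 was lower, at 32.17 and 29.4 (30.8 ± 1.96). Among Rab genes with no single compartment assigned here, rab-39 had 26.7 and 26.9 CPM per kb (26.8 ± 0.135) and rab-19 had 19.98 and 18.8 (19.4 ± 0.815).

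Ciliary GTPase genes were barely detectable. In C. elegans only certain sensory neurons carry cilia. ARL-13 and ARL-3 act in ciliary membrane traffic, ARL-6 is the worm form of a Bardet-Biedl syndrome protein, and RAB-28 rides with the complex of such proteins. The gene arl-13 had 22 and 32 counts (0.713 ± 0.135 CPM per kb), rab-28 had 18 and 12 (0.561 ± 0.198), arl-3 had 17 and 11 (0.301 ± 0.112), and arl-6 had 8 and 10. All 4 genes thus stood under 1 CPM per kb in both libraries, and arl-6 was not called detected. Besides arl-6 and rab-11.2, rab-37, a Rab of secretory granules in mammals, fell short of detection, with 9 and 14 counts. Of the 4 neuronal markers, 1 lay above the median of detected protein-coding genes, with snt-1, the synaptotagmin gene, at 1.05 ± 0.0827 CPM per kb and unc-119 at 12.2 ± 0.131. Whether the share of neurons in the RNA sets the level of the ciliary genes was not tested.

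The genes left out by name fell on opposite sides of the set. The yolk receptor gene rme-2 had 628 and 603 CPM per kb (616 ± 17.8), 1.78 ± 0.0406 times rab-11.1 and 8.12 ± 0.386 times rme-1. The gene of RAB-3, the Rab of synaptic vesicles, had 1.70 and 1.93 (1.81 ± 0.159). A list of 7 Rab and Arf family genes outside the set held rab-3 and genes known under other names. Of these 7, the Rab2 gene unc-108 was highest at 139 ± 2.16 CPM per kb, next to rab-5 in level. The lowest was rsef-1 at 0.444 ± 0.131. The median of those 7 was 4.37 ± 0.292. Besides unc-108, only evl-20, the Arl2 gene, exceeded the median of detected protein-coding genes, at 25.6 ± 1.60 (named after its value was seen).

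**Figure D2:**
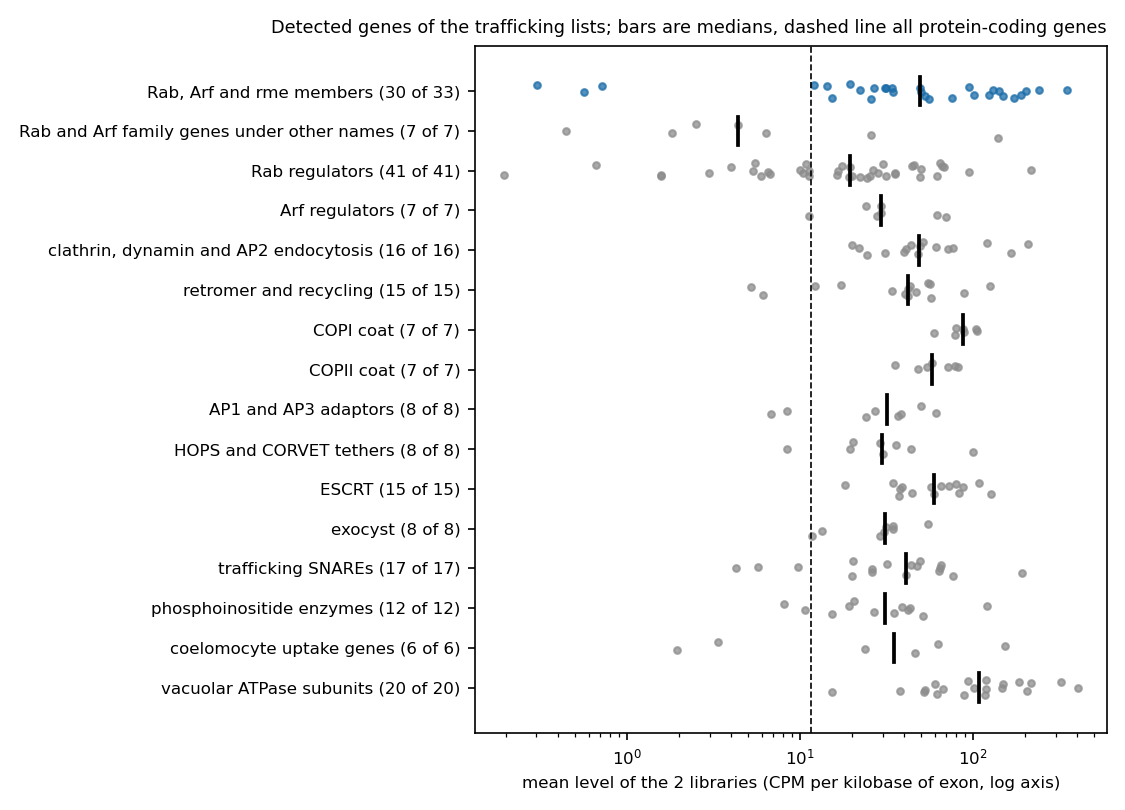
Mean level of the detected genes of each trafficking list (CPM per kilobase of exon, log axis, 1 point a gene), with the 30 detected genes of the set in blue, black bars at the list medians and a dashed line at the median of detected protein-coding genes. The set has a median of 49.6 with 3 detected genes under 1, and the COPI coat genes lie close together, from 59.5 to 105.

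The lists of regulators had lower medians than the set, as a description with no test. Of 44 Rab regulator genes listed, 41 were in the table under those symbols and all 41 were detected, at a median of 19.5 ± 0.458 CPM per kb. The highest was gdi-1, whose product takes inactive Rabs off membranes, at 215 ± 0.237, and the lowest was tbc-16, a TBC-domain gene of the kind that encodes Rab GAPs, at 0.194 ± 0.00527. Of these 41 genes, 7 exceeded the median of the 30 detected genes of the set. The 7 Arf regulator genes had a median of 29.2 ± 0.876, from the ARF GAP gene git-1 at 11.3 ± 0.329 to efa-6, an exchange factor gene of ARF-6, at 69.3 ± 1.19.

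The genes of the COPI, COPII and clathrin lists all lay above the typical detected gene. The 7 COPI coat genes had a median of 87.0 ± 0.539 CPM per kb, from cope-1 at 59.5 ± 3.28 to copa-1 at 105 ± 3.59. The 7 COPII genes had 57.7 ± 0.918, from sec-24.2 at 35.2 ± 0.477 to sec-23 at 81.7 ± 2.66. The 16 genes of clathrin, dynamin and AP2 endocytosis had a median of 48.8 ± 0.0309, from the synaptojanin gene unc-26 at 19.9 ± 0.408 to the adaptor gene dab-1 at 208 ± 3.17. The 8 AP1 and AP3 adaptor genes had a lower median of 32.0 ± 0.503, from apm-1 at 6.80 ± 0.102 to apb-3 at 61.3 ± 0.068.

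Endosomal sorting and tethering genes followed. Retromer and recycling genes had a median of 42.1 ± 1.20 CPM per kb over 15 genes, from the sorting nexin gene snx-17 at 5.19 ± 0.455 to cdc-42 at 125 ± 1.61. The ESCRT genes, whose products bud vesicles into late endosomes, had 59.7 ± 2.05 over 15 of 16 listed, from vps-25 at 18.2 ± 1.18 to vps-32.1 at 126 ± 6.48. The 8 HOPS and CORVET tether genes, which act with RAB-7 and RAB-5, had 29.7 ± 1.10, from vps-41 at 8.37 ± 0.105 to vps-39 at 99.6 ± 1.18. Exocyst genes, which tether vesicles at the plasma membrane, had 31.2 ± 0.0293 over 8 genes, from sec-3 at 11.8 ± 0.0383 to exoc-8 at 54.8 ± 1.06.

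The fusion and lipid lists were of similar height. SNARE genes had a median of 40.9 ± 3.30 over 17 genes, from vamp-8 at 4.27 ± 0.124 to snb-1 at 192 ± 12.7. The 12 phosphoinositide enzyme genes had 30.9 ± 2.07, from mtm-5 at 8.09 ± 0.169 to the myotubularin gene mtm-3 at 120 ± 5.81. The 6 coelomocyte uptake genes had 34.99 ± 0.889, from the coelomocyte gene cup-4 at 1.95 ± 0.223 to cup-2 at 153 ± 4.20. For scale, the 20 vacuolar ATPase genes, whose pump acidifies endosomes and lysosomes, had a median of 109 ± 1.08, from vha-5 at 15.2 ± 0.266 to vha-2 at 405 ± 16.2.

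Length moved the order of the set. Merged exons ran from 639 bp for arf-6 to 7387 bp for rme-8, with a median of 1074 bp over the 33 genes and 1447 bp over detected protein-coding genes. Across the 30 detected genes, exon length had a Spearman rank correlation of 0.25 with CPM and -0.25 with level. This describes these genes, and level contains length by construction. The long genes rme-8, rme-1 and rme-6 dropped most in rank when CPM were divided by length. Of these, rme-8 went from rank 3 by CPM to rank 19 by level, and rme-6 went from 18 to 27.

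**Figure D3:**
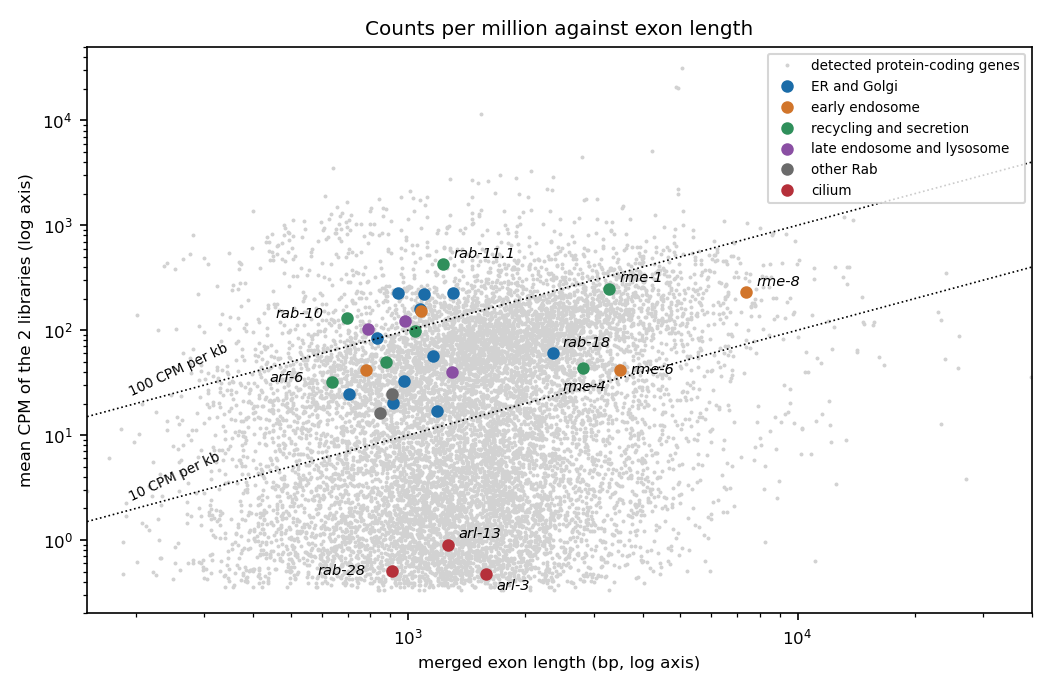
Mean CPM of the 2 libraries against merged exon length (bp, both axes log) for detected genes of the set, coloured by role, over all detected protein-coding genes in grey, with dotted lines at 10 and 100 CPM per kb. The GTPase genes crowd at short lengths, while rme-1 and rme-8 have CPM close to those of arf-1 and rab-1 over much longer exons.

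Most neighbours in the order of levels kept that order whichever library was taken for each. Of the 29 pairs of neighbours among the 30 detected genes, 23 had ranges that did not overlap. A range of 2 values can be narrower than counting error, so ranges that lie apart do not show that 2 genes differ. For example, rab-39, with 685 and 766 counts, had 26.8 ± 0.135 CPM per kb beside 25.6 ± 0.416 for rab-18. Differences between neighbouring genes were not tested. The overlapping pairs were rab-21 with arf-6, arf-6 with rab-33, arl-5 with arl-1, arl-1 with rme-8, rme-8 with rab-14, and arl-13 with rab-28. That order also rests on gene models. The lengths implied by the authors' deposited RPKM (reads per kilobase, scaled to a read total), after its read totals were put right, were within 10% of the annotated exon length for 20 of the 30 genes. With them, 7 of the 29 neighbouring pairs turned round, among them rab-10 (143 CPM per kb) with arf-1 (187) and rab-7 (105) with arl-8 (114). The gene arl-3 moved most, since its implied length of 555 bp stands against 1586 bp of annotated exon, and its level then became 0.861 CPM per kb.

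On the chromosomes, the set was sparse on V and its X-linked genes were all of low or middle level. Chromosome V held 2 of the 33 genes, rab-1 and rme-1, or 6.06%, while 24.99% of annotated protein-coding genes are on V. Chromosome III held 8, or 24.24%, beside 13.2% of protein-coding genes. The 5 X-linked genes were rab-14, rab-6.2, rme-4, rme-6 and rab-37. The 4 detected ones ran from 12.04 to 30.8 CPM per kb with a median of 18.8. Detected protein-coding genes on X had a median of 4.25, the lowest of the 6 chromosomes, and those on chromosome I the highest, 26.98. The 6 detected genes of the set on chromosome I had a median of 118.

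The gene models were mostly simple. A single annotated transcript was found for 21 of the 33 genes. For 8 genes (24.24%) the nearest protein-coding gene upstream on the same strand ended within 500 bp, beside 18.1% of all protein-coding genes. Levels of such neighbours could be alike or far apart. As examples picked after their values were seen, arf-1 lay 39 bp from rbm-26 (107 CPM per kb), whereas arl-13 lay 210 bp from moag-4, which had 69.8 CPM per kb against 0.713. Exons of 11 genes shared bases with exons of another gene, over more than 10% of their length only for rab-19 (31.1%, with Y62E10A.20 on the same strand). The strand and overlap settings of the counting were not given, so the value of rab-19 is uncertain. The same holds for scarce genes, where a few stray reads weigh more. Exons of arl-13 shared 8.38% of their length with genes on the opposite strand, rla-1 among them. For arl-3 the share was 1.51% (tps-2) and for rab-11.2 it was 1.33% (W04G5.10), both on the same strand.

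The libraries gave almost the same levels for the set. Each gene's counts in replicate 2 were compared with replicate 1 by a two-sided exact binomial test with TMM (trimmed mean of M-values) library sizes, and p-values were adjusted by the Benjamini-Hochberg method over all 14397 genes whose counts summed to 10 or more. This test holds counting noise only and compares these 2 libraries, not conditions. A call needed an adjusted p under 0.05 and a difference of at least 2-fold. None of the 32 genes of the set that could be tested passed, while 118 of all genes tested did (0.82%). At an unadjusted p under 0.05 there were 3 (9.38%), namely rab-1, rab-14 and rme-8, beside 3083 of all genes tested (21.4%), and with DESeq2 size factors the number called was again 0. Since 0.82% of 32 genes is less than 1 gene, a count of 0 does not set the genes apart.

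Without the 2-fold minimum, rme-8 alone passed, beside 1667 of all genes tested (11.6%). Its log2 ratio of replicate 2 to replicate 1 was -0.10 (95% exact interval -0.15 to -0.05, exact binomial test with Benjamini-Hochberg adjusted p = 0.000675). The log2 ratio of rab-14 was -0.15 (adjusted p = 0.0956 by the same exact test) and that of rab-1 was -0.06 (adjusted p = 0.0879), so neither passed. Exon length moved with the direction of the difference over all genes. Among the 6357 genes with 400 or more counts in each library, the median log2 ratio was 0.08 for genes under 1000 bp of exon and -0.08 for those of 4000 bp or more. Of the 541 genes in that longest class, which holds rme-8, 243 (44.9%) were lower in replicate 2 by adjusted p alone. Exon length and log2 ratio had a Spearman rank correlation of -0.47 over these 6357 genes. Over the 27 of them that belong to the set it was -0.12. The part of length in the rme-8 difference was not tested.

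**Figure D4:**
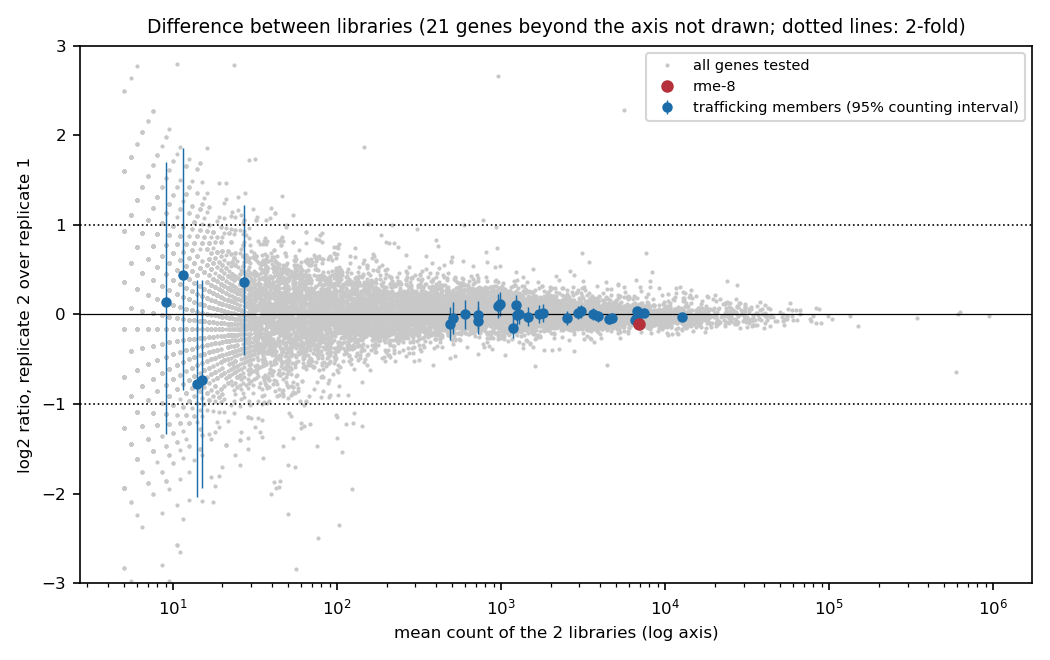
Log2 ratio of replicate 2 to replicate 1 against the mean count (log axis) for all 14397 genes tested in grey, apart from 21 beyond the axis, and for the 32 tested genes of the set in blue with 95% counting intervals, with rme-8 in red. The well-counted genes of the set hug 0, and the wide intervals on the left belong to the ciliary genes and rab-37.

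The spread was small where counts were high. For the 27 genes of the set with 400 or more counts in each library, log2 ratios ran from -0.15 (rab-14) to 0.12 (arl-1), and 22 of them lay within 0.1 of no difference. Their median size was 0.035, beside 0.060 for 5975 genes of the same count range, of which 71.8% lay within 0.1. For the scarce genes depth set the limit. The interval of the log2 ratio was -0.455 to 1.23 for arl-13 and -2.04 to 0.38 for arl-3. A level 2-fold higher in replicate 2 was thus not excluded for arl-13, nor a level 2-fold lower for arl-3. In the other trafficking lists, of 175 genes tested none was called with the 2-fold minimum, 54 (30.9%) had an unadjusted p under 0.05, and 26 (14.9%) passed by adjusted p alone, 11 higher and 15 lower in replicate 2. The yolk receptor gene rme-2 was among the lower ones, with a log2 ratio of -0.08 (exact binomial test, adjusted p = 3.39e-15).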

How the data were processed

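Raw counts per gene were deposited by the authors. Per the submitters' processing notes, STAR 2.4.1d, featureCounts 1.4.6-p4 and the build WBcel235 were used; counting options, strand and annotation were not given in the sources used here. Per the labels' protocols, an Illumina mRNA kit was used on total RNA.

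Symbols came from a table of WormBase identifiers, and exon lengths, coordinates and overlaps from Ensembl release 115 of the same build (46449 of 46748 identifiers matched). Levels are CPM per kilobase of merged exon, computed here from counts. Identifiers without an exon length have no level.

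The RPKM values deposited by the authors used a read total that changed over 8 row classes: the ratio of totals ran from 0.787 to 1.27 between classes, against 0.901 for the libraries themselves. They served only as an alternative and for implied lengths.

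Libraries were compared with an exact binomial test (scipy 1.17.1) on TMM sizes (edgeR 4.0.16), as 1 group gives edgeR's quasi-likelihood test no contrast; DESeq2 1.42.0 size factors were an alternative. A count of 0.5 was added for log2 ratios.

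All genes of the set were named, and of each other list the highest and lowest detected gene. Set and lists were chosen with earlier results of these data known. Roles are background knowledge. One list of other small GTPases is not reported here.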

Additional observations from a re-analysis of the deposited data

How the results depend on the processing

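The number of detected genes was 33, 27 and 30 with at least 1, 100 and 10 counts in both libraries, and 30 to 32 from a single library. The median level of detected genes, 49.6 CPM per kb, became 53.1 CPM without division by length, 46.6 with the authors' deposited RPKM, and 34.6 with undetected genes kept. It was 44.9 with the lengths implied by that table, an alternative chosen after seeing the data. From 1 library each it was 48.5 to 50.7, and the share of counts was 0.2933 to 0.2938%. Against the median of detected protein-coding genes the set was 4.32 times as high, 3.25 times by CPM and 3.69 times by the authors' deposited RPKM. Of 30 single genes, arl-3 alone moved by over 1.5 times, with the authors' deposited RPKM. Calls between the libraries stayed at 0 with DESeq2 size factors, library totals, no count filter and a 1.5-fold minimum, and became 1 with no fold minimum. Over all genes the same settings gave 120, 118, 89, 216 and 1667 calls, beside 118. No paired analysis was possible because there is only 1 group. With 2 libraries, depth limits the genes with few counts, namely the ciliary genes, rab-37 and rab-11.2.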
